A study of Mus musculus with 28 samples.

Results

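The genes described here are 46 genes of the cell cycle and DNA replication, listed by name: the MCM helicase subunits, the enzymes that supply deoxynucleotides, the cyclins and mitotic kinases, the kinetochore and spindle proteins and the transcription factors E2f1 and Foxm1. Of the 46 genes, 45 had a probe set and are followed across every group, among 17097 genes measured in all. Ccnb1, the gene for cyclin B1, is not analysed here. RNA abundance was measured on Affymetrix arrays in CD45+ cells, which are leukocytes, sorted from mouse tumours. The tumour lines were B16.F10, which is a melanoma, and MC38, which is a colon carcinoma.

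All host mice carried Foxp3Cre-YFP, so that Cre recombinase and YFP are made in cells that express Foxp3, the transcription factor of regulatory T cells. Control hosts carried Foxp3Cre-YFP alone. The other hosts were Nrp1L/LFoxp3Cre-YFP, with floxed alleles of Nrp1, which encodes the co-receptor neuropilin-1 and which Cre removes in Foxp3-expressing cells; these hosts are called Nrp1-deleted. MC38 tumours were taken at days 6, 12 and 18 and B16 tumours at an early day, day 12 and day 18. For the early B16 arrays, titles say day 8 and source names say day 6. The 28 arrays form 12 groups, with 3 arrays in each B16 day 18 and MC38 day 12 group and 2 in each of the other 8 groups. The labels do not tell whether replicates are different mice, so each p-value rests on the spread among arrays, which may be technical.

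A dividing cell passes from G1 into S phase, when it copies its DNA, and then through G2 into mitosis. E2F factors switch on the genes of DNA replication at the G1 to S boundary. The DREAM complex, MYBL2 and FOXM1 control the mitotic genes, which peak in G2 and mitosis, through a promoter element named CHR (cell cycle genes homology region). The CCAAT box is a separate element that many of these promoters also hold. The same genes serve every dividing cell, so in sorted leukocytes their transcripts can come from lymphocytes and from myeloid cells. They can also come from tumour or stromal cells left in the sort, and melanocytic and fibroblast markers on these arrays are given below. In a mixture of cells, fewer dividing cells and less of such RNA per cell cannot be told apart.

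The promoters of 4 of the genes described below show these elements and their absence. Each is printed from 250 bases before the gene's start to 50 bases from it, as RefSeq gives it on GRCm38.p6, 5′ to 3′ on the gene's strand, and capitals mark a match to one of the motifs. Ttk and Cdk1 are mitotic kinase genes, Mcm6 is a helicase subunit gene, and Tk1 encodes thymidine kinase. Their windows are chr9:83834439-83834738 on the plus strand, and chr10:69352863-69353162, chr1:128359656-128359955 and chr11:117825965-117826264 on the minus strand.
Ttk: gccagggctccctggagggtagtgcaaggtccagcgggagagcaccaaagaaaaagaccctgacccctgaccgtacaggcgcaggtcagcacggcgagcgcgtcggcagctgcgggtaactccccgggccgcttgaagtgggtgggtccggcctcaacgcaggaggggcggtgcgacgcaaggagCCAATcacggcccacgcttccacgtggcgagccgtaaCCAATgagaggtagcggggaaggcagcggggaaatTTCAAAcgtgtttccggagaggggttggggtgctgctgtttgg
Cdk1: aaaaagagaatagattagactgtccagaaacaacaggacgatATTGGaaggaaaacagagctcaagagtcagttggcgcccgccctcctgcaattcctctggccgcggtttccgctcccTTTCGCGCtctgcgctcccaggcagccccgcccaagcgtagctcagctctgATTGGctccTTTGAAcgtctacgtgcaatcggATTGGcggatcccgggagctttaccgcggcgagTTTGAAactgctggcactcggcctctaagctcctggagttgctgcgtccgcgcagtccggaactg
Mcm6: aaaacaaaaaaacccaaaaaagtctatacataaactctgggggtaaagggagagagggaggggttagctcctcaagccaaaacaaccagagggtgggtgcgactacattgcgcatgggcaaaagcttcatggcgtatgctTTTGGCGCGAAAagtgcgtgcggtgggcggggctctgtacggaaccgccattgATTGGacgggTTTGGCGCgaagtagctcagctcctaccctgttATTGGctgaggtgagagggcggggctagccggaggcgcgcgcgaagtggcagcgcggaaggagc
Tk1: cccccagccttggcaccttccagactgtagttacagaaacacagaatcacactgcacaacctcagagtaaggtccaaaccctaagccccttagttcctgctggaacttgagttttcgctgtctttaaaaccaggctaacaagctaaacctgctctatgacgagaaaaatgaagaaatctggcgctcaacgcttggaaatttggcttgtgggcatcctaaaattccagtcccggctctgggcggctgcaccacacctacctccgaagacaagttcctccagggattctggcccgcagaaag

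The motifs searched, on both strands, were CHR (TTTGAA or TTCGAA), the CCAAT box (CCAAT) and an E2F site (TTTGGCGC, TTTCCCGC or TTTCGCGC). Positions count from 1 at the gene's first base, with negative numbers before it, and give the leftmost base of a match as printed. Ttk held a CHR match at 8 and CCAAT matches at -65 and -28. Cdk1 held CHR matches at -71 and -15, CCAAT matches at -208, -80 and -48 and an E2F match at -131. Mcm6 held no CHR match, but CCAAT matches at -57 and -14 and E2F matches at -110, -106 and -47, of which those at -110 and -106 overlap. The Tk1 window held none of these letters.

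RefSeq windows were matched for 36 of the 45 genes, with 39 windows in all. A CHR match was in 21 of the 39 windows (53.8%), against 19.2% of 32851 windows of all genes. A CCAAT match was in 31 (79.5%), against 37.4%, and an E2F match in 7 (17.9%), against 1.84%. Both CHR and CCAAT were in 21 windows (53.8%), against 7.52%. A match is a description of letters, not a bound site.

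Across the arrays the deposited values fell into 3 ranges by their mean log2 value: 4.62 to 4.64 for B16 day 18 and MC38 day 12, 4.82 to 4.84 for MC38 days 6 and 18, and 4.95 to 4.97 for early and day 12 B16. Differences are therefore taken only within a range. This holds for every genotype comparison, for MC38 day 18 against day 6 and for B16 day 12 against the early day. Spans of values over arrays or groups of several days cross these ranges and are descriptive, as is the median of all values, 3.64, used below. Within groups, arrays correlated at 0.984 or higher, and no 2 arrays were identical. Ptprc, the gene for CD45, lay between 11.51 and 12.90 on all arrays and was higher in Nrp1-deleted hosts, by 0.30 ± 0.05 in MC38 (adjusted p = 0.000118) and 0.20 ± 0.05 in B16 (adjusted p = 0.00283); its part in the results below was not tested. Nrp1, which other leukocytes express too, was lower in Nrp1-deleted hosts by a log2 difference of -0.84 ± 0.09 (SE, adjusted p = 1.65e-07) over the 6 settings. It differed by -1.13 ± 0.12 in B16 (adjusted p = 2.25e-07) and by -0.54 ± 0.12 in MC38 (adjusted p = 0.00267). Whether its probe set lies in the floxed part is not known here, and Foxp3 lay near background on every array (2.65 to 3.44). The array of MC38 day 18, Nrp1-deleted replicate 1, stood apart at Eif2s3y, a Y-linked gene, with 6.47 versus 7.52 to 9.57 on the other 27 arrays.

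In MC38 tumours the cell cycle genes were lower in leukocytes of Nrp1-deleted hosts. Averaged over days 6, 12 and 18, 41 of the 45 genes fell (91.1%) and 0 rose at an adjusted p under 0.05, and all 45 fitted differences were negative. Among all genes 12.3% fell and 6.97% rose. The median log2 difference was -0.56 over the 45 genes and -0.06 over all genes, and the range over the 45 genes was -1.08 (Ttk) to -0.14 (Cenpa). All adjusted p-values here are from limma over 17097 genes, differences are Nrp1-deleted minus control on the log2 scale, and errors are SE.

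All 4 genes that supply deoxynucleotides fell in MC38, with a median of -0.59. Tk1 encodes thymidine kinase, the salvage enzyme of dividing cells, and had log2 values of 7.90 and 7.82 in controls and 6.62 and 6.74 in Nrp1-deleted hosts at day 6. At day 12 it had 8.60, 7.84 and 8.39 in controls against 7.31, 7.97 and 7.57, and at day 18 it had 8.89 and 8.996 versus 7.51 and 7.71. The genotypes did not overlap at days 6 and 18 and overlapped at day 12, and the mean difference was -1.06 ± 0.12 (adjusted p = 1.78e-06). Tyms, thymidylate synthase, had 8.48 and 8.59 versus 7.72 and 8.05 at day 6, 8.54, 7.99 and 8.72 versus 7.67, 8.41 and 7.92 at day 12, and 8.79 and 8.95 versus 8.07 and 8.03 at day 18. Its difference was -0.63 ± 0.11 (adjusted p = 0.000358), with the same overlap at day 12 only.

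Rrm2, the regulated subunit of ribonucleotide reductase, had 8.25 and 8.26 in controls against 7.43 and 7.51 at day 6, 8.30, 8.22 and 8.35 versus 7.67, 8.46 and 8.0045 at day 12, and 8.50 and 8.56 versus 7.66 and 8.13 at day 18. The highest Nrp1-deleted array of day 12 lay above all its controls, and the mean difference was -0.56 ± 0.11 (adjusted p = 0.000817). Rrm1, the large subunit, fell by less, with -0.29 ± 0.09 (adjusted p = 0.0175).

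All 9 genes of replication licensing and the fork fell in MC38, with a median of -0.46. Pcna, the sliding clamp of the DNA polymerases, had 11.83 and 11.91 in controls against 11.47 and 11.56 at day 6, 11.51, 11.39 and 11.57 versus 11.30, 11.51 and 11.44 at day 12, and 11.91 and 11.90 versus 11.63 and 11.77 at day 18. Its shift was small but its replicates were close, and the mean difference was -0.21 ± 0.05 (adjusted p = 0.00437). Mcm5, a subunit of the MCM2-7 helicase, had 7.53 and 7.88 versus 7.41 and 6.76 at day 6, 7.99, 7.63 and 7.90 versus 7.30, 7.81 and 7.35 at day 12, and 8.06 and 7.98 versus 7.45 and 7.63 at day 18. Its difference was -0.48 ± 0.10 (adjusted p = 0.00136), and the genotypes overlapped at day 12 only.

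Mcm7, another helicase subunit, fell by 0.58 with an SE of 0.08 (adjusted p = 2.83e-05), from 8.48 and 8.80 to 7.98 and 7.95 at day 6, from 8.65, 8.50 and 8.67 to 8.03, 8.55 and 8.16 at day 12, and from 8.96 and 9.09 to 8.21 and 8.43 at day 18. Gins2, which joins the helicase at the fork, had a difference of -0.66 ± 0.11 (adjusted p = 0.000141). Mcm2, Mcm3 and Cdc6, the loader of the helicase, differed by -0.46, -0.43 and -0.53. Mcm6 and Mcm4 lay at the small end, with -0.32 and -0.20.

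All 9 genes of the mitotic kinases and the spindle checkpoint fell, with a median of -0.68, and all 6 genes of the spindle and cytokinesis fell, with a median of -0.71. Cdk1, the kinase that drives entry into mitosis, had 9.05 and 8.87 in controls against 7.90 and 7.96 at day 6, 9.08, 8.68 and 9.09 versus 7.76, 8.64 and 8.14 at day 12, and 9.46 and 9.54 versus 8.16 and 8.87 at day 18. No Nrp1-deleted array reached a control array of its day, and the mean difference was -0.93 ± 0.14 (adjusted p = 7.03e-05). Bub1b, a component of the mitotic checkpoint complex, had 6.84 and 6.95 versus 6.08 and 6.03, then 7.45, 6.96 and 7.33 versus 6.49, 6.66 and 6.41, then 7.79 and 7.75 versus 6.68 and 6.92. It too did not overlap on any day, and its difference was -0.85 ± 0.11 (adjusted p = 1.05e-05).

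Birc5, or survivin, a subunit of the chromosomal passenger complex, had 8.84 and 9.09 in controls against 8.28 and 8.36 at day 6, 8.94, 8.34 and 8.81 versus 8.14, 8.63 and 8.33 at day 12, and 9.60 and 9.69 versus 8.69 and 8.95 at day 18. It overlapped at day 12 only, and its difference was -0.60 ± 0.11 (adjusted p = 0.000509). Its partners Aurkb and Cdca8 differed by -0.73 and -0.64. Ttk, the checkpoint kinase MPS1, had the largest difference, -1.08 ± 0.20 (adjusted p = 0.000487).

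Further kinases of mitosis moved in the same direction: Plk1 differed by -0.73, Aurka by -0.68 and Bub1 by -0.66. Among the spindle genes, Prc1, which bundles microtubules of the midzone, differed by -0.86 ± 0.17 (adjusted p = 0.001), Nusap1 by -0.76, Tpx2, the activator of Aurora A, by -0.73, and the motor genes Kif11, Kif23 and Kif20a by -0.69, -0.68 and -0.63. The genes of anaphase and mitotic exit, Ube2c, Cdca3 and Cdc20, differed by -0.62, -0.61 and -0.53, and all 3 fell. Of the mitotic entry genes beside Cdk1, Ccnb2 (cyclin B2) differed by -0.50, Cdc25c, the phosphatase that activates CDK1, by -0.49 and Ccna2 (cyclin A2) by -0.47.

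Top2a, topoisomerase II alpha, which untangles chromosomes, had 8.91 and 8.90 in controls against 8.47 and 8.61 at day 6, 9.52, 9.10 and 9.39 versus 8.61, 9.25 and 8.76 at day 12, and 9.72 and 9.83 versus 8.85 and 9.34 at day 18. Its difference was -0.50 ± 0.12 (adjusted p = 0.00363). Mki67, which encodes the proliferation antigen Ki-67 of the chromosome surface, had 8.57 and 8.69 versus 8.41 and 8.67 at day 6, 9.14, 8.43 and 9.06 versus 8.45, 8.99 and 8.59 at day 12, and 9.34 and 9.56 versus 8.83 and 9.05 at day 18. Its arrays overlapped at days 6 and 12, and its difference, -0.27 ± 0.12, did not pass (adjusted p = 0.134).

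Of the 5 genes of cycle transcription and G1/S control, 4 fell, with a median of -0.34, and of the 3 kinetochore genes 1 fell. E2f1, the activator of the replication genes, had 7.13 and 6.81 in controls against 6.57 and 6.88 at day 6, 7.13, 6.66 and 7.04 versus 6.74, 6.54 and 6.73 at day 12, and 7.34 and 7.12 versus 6.79 and 6.67 at day 18. Its difference was -0.34 ± 0.09 (adjusted p = 0.00807), and the groups separated at day 18 only. Foxm1, the mitotic factor, lay near background, with 3.97 and 3.49 versus 3.91 and 3.63, 4.18, 4.07 and 4.89 versus 4.54, 4.01 and 3.92, and 4.76 and 4.52 versus 3.88 and 3.94.

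Foxm1 differed by -0.30 ± 0.16, which did not pass (adjusted p = 0.216), and its groups separated at day 18 only. Ccne1 (cyclin E1) had 6.33 and 6.38 versus 5.76 and 5.86 at day 6, 6.11, 5.95 and 6.36 versus 5.96, 6.27 and 6.41 at day 12, and 6.58 and 6.49 versus 5.85 and 6.14 at day 18, a difference of -0.34 ± 0.11 (adjusted p = 0.0374). Ccne2 differed by -0.55 and Uhrf1, which guides maintenance methylation behind the fork, by -0.46. Cenpe, the kinetochore motor, fell by 0.52, while Cenpf had -0.47 ± 0.17 (adjusted p = 0.0623) and Cenpa, the centromeric histone, had -0.14 ± 0.10 (adjusted p = 0.35).

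**Figure D1:**
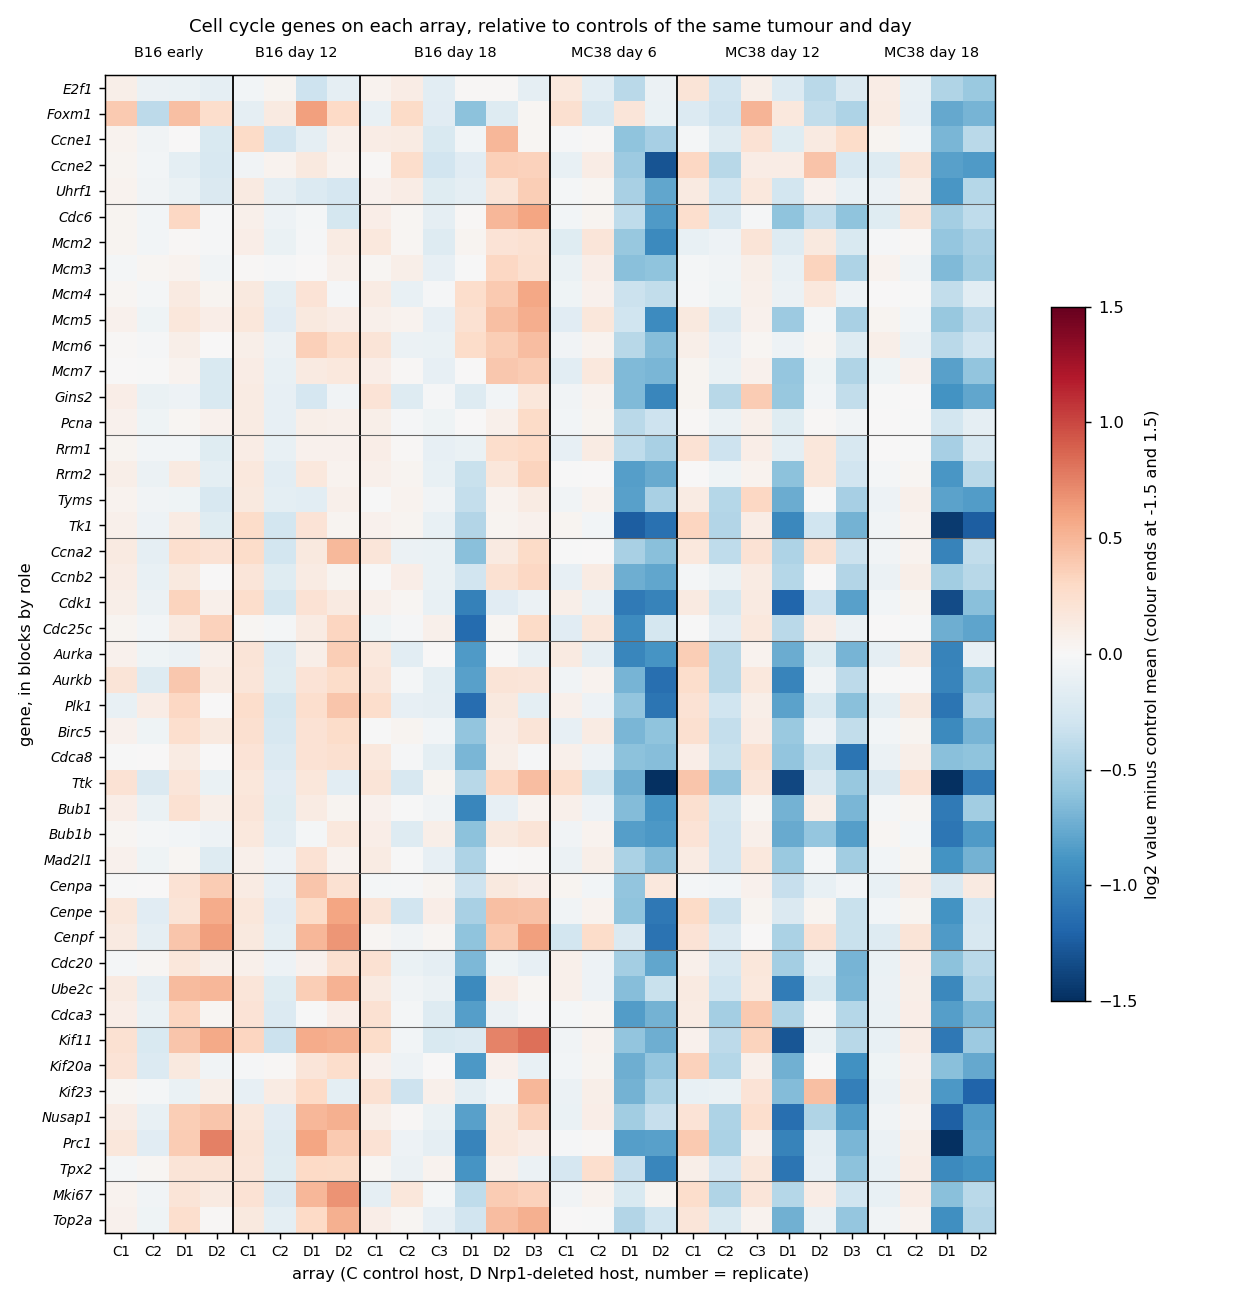
Log2 value of each gene (rows, in blocks by role) on each array (columns, C for control and D for Nrp1-deleted hosts), minus the mean of the controls of the same tumour and day; colours end at -1.5 and 1.5. The Nrp1-deleted columns of MC38 days 6 and 18 are blue for nearly all genes, MC38 day 12 replicate 2 is pale, and B16 day 18 replicate 1 differs from its replicates.

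The 41 calls in MC38 were 35 without the array of day 18, Nrp1-deleted replicate 1, and 35 to 42 over all arrays left out in turn. Called without any one array were 35 genes, and 32 were called under every alternative processing tried. Genes that lost the call under some alternative were E2f1, Ccne1, Mcm4, Rrm1, Tyms, Ccna2, Cdc25c, Cenpe and Top2a. Of 34 further probe sets for these genes, 29 also had a negative MC38 difference, and 4 of the 5 others had a mean below 3.64, the median of all values on the arrays.

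By day, the 45 genes had a median difference of -0.64 at MC38 day 6, -0.36 at day 12 and -0.70 at day 18. At day 6, 11 fell, against 1.99% of all genes: Tk1, Mcm2, Mcm6, Ccnb2, Mcm7, Bub1b, Gins2, Rrm2, Cdk1, Mcm3 and Pcna. Tk1 differed by -1.18 ± 0.22 (adjusted p = 0.00485), Mcm2 by -0.76 ± 0.15 (adjusted p = 0.00897) and Mcm6 by -0.52 ± 0.11 (adjusted p = 0.0102). Mcm2 had 7.96 and 8.33 in controls against 7.58 and 7.19, and Mcm6 had 9.75 and 9.87 versus 9.40 and 9.18, so neither overlapped. In 40 of the 45 genes both Nrp1-deleted arrays lay below both controls, against 25.9% of all genes. With 1 array of day 6 left out, which leaves a group of 1 array, the median difference ran from -0.71 to -0.57. The count at day 6 was 1 without control replicate 2 or without Nrp1-deleted replicate 2 and 2 without control replicate 1.

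At MC38 day 12, 6 genes fell, against 4.87% of all genes: Bub1b, Cdca8, Tk1, Nusap1, Cdk1 and Cdc6. Bub1b differed by -0.72 ± 0.17 (adjusted p = 0.00819), and Cdca8, a borealin subunit of the passenger complex, went from 8.22, 7.79 and 8.34 to 7.52, 7.78 and 7.02, by -0.68 ± 0.18 (adjusted p = 0.021). Only 5 genes had all 3 Nrp1-deleted arrays below all 3 controls, against 17.1% of all genes. Day 12 was the day with the widest spread. Control replicate 2 lay below the control mean for 45 of 45 genes, with a median of -0.29, and Nrp1-deleted replicate 2 lay close to it, at -0.03, while its replicates lay at -0.56 and -0.45.

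Without Nrp1-deleted replicate 2 the count at day 12 was 17, and without control replicate 2 it was 13. It was 1 without control replicate 1 or 3 or Nrp1-deleted replicate 3 and 2 without Nrp1-deleted replicate 1. Control replicate 2 also had the highest T cell marker mean of its group, 7.93 versus 6.91 and 5.85. Nrp1-deleted replicate 2 had the lowest of its group, 7.62 versus 7.71 and 8.79, and so lay close to replicate 1. Macrophage marker means ran the other way. Control replicate 2 had the lowest of its group, 10.92 versus 11.26 and 11.14, and Nrp1-deleted replicate 2 the highest, 11.07 versus 10.82 and 11.01. The part of T cells, macrophages or other cells in the spread of these arrays was not tested.

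At MC38 day 18, 15 genes fell, against 2.24% of all genes. Tk1 differed by -1.34 ± 0.22 (adjusted p = 0.000863), Bub1b by -0.97 ± 0.20 (adjusted p = 0.00622) and Mad2l1, the checkpoint protein MAD2, by -0.80 ± 0.17 (adjusted p = 0.00777). Mad2l1 had 9.23 and 9.32 in controls against 8.38 and 8.57. The other 12 were Mcm7, Gins2, Birc5, Tyms, Nusap1, Cdk1, Uhrf1, Mcm3, Prc1, Ttk, Mcm2 and Tpx2. In 43 genes both Nrp1-deleted arrays lay below both controls, against 32.6% of all genes.

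The array medians relative to the day 18 controls were -0.85 and -0.52. Leaving out any 1 array of day 18 leaves a group of 1 array, which lowers the precision. The median difference of the 45 genes then ran from -0.85 to -0.52. The count fell to 1 without Nrp1-deleted replicate 1 or control replicate 2, to 3 without control replicate 1 and to 7 without Nrp1-deleted replicate 2. On each of the 3 MC38 days, only Cdc6, Cdk1, Cdca8 and Bub1b had all Nrp1-deleted arrays below all controls, 4 of 45 genes against 5.09% of all genes. The genotype effect at day 18 minus that at day 6 was called for 0 of the 45 genes by limma, and 0 had an unadjusted p under 0.05, against 0.0819% of all genes called. The median of this difference was -0.02. Fitted only with the arrays of the same range of values, a choice made after the data were seen, the counts at days 6, 12 and 18 were 20, 0 and 25.

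In B16 tumours the genotype difference of most of the same genes was small and positive. Over the 3 times 33 of the 45 differences were positive, with a median of 0.06 versus 0.01 over all genes, and a range from -0.13 (E2f1) to 0.50 (Kif11). The test called 2 genes higher and 0 lower, against 10.3% and 12.3% of all genes, and 9 genes had an unadjusted p under 0.05, each positive. Both calls were helicase subunits: Mcm6 rose by 0.24 ± 0.06 (adjusted p = 0.0032) and Mcm4 by 0.20 ± 0.06 (adjusted p = 0.0259).

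Mcm6 had 10.84 and 10.81 in early controls against 10.91 and 10.83, 10.46 and 10.27 versus 10.72 and 10.63 at day 12, and 10.48, 10.21 and 10.19 versus 10.58, 10.66 and 10.76 at day 18. It was separated at days 12 and 18. Mcm4 had 10.28 and 10.23 versus 10.40 and 10.30 early, 10.07 and 9.78 versus 10.13 and 9.90 at day 12, and 9.72, 9.49 and 9.58 versus 9.86, 9.99 and 10.17 at day 18. It was separated at the early day and at day 18.

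Mki67 had 10.23 and 10.12 in early controls against 10.37 and 10.31, 9.65 and 9.22 versus 9.93 and 10.11 at day 12, and 9.58, 9.88 and 9.69 versus 9.34, 10.10 and 10.06 at day 18. The first 2 times did not overlap, and the difference, 0.29 ± 0.12, did not pass (adjusted p = 0.1). Cdk1 had 9.30 and 9.12 versus 9.55 and 9.28, then 8.89 and 8.36 versus 8.84 and 8.76, then 9.38, 9.33 and 9.19 versus 8.29, 9.13 and 9.22, and a difference of -0.02 ± 0.14. Tk1 had 8.37 and 8.21 versus 8.41 and 8.11, 8.19 and 7.64 versus 8.12 and 7.95, and 8.41, 8.38 and 8.23 versus 7.90, 8.38 and 8.40. Neither gene was separated by genotype at any time in B16.

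Top2a had 10.10 and 9.97 in early controls against 10.29 and 10.05, 9.51 and 9.21 versus 9.66 and 9.89 at day 12, and 9.79, 9.71 and 9.56 versus 9.40, 10.15 and 10.22 at day 18. Birc5 had 10.0026 and 9.88 versus 10.20 and 10.09, 9.54 and 9.07 versus 9.52 and 9.57, and 9.37, 9.41 and 9.33 versus 8.78, 9.48 and 9.57. Rrm2 had 9.40 and 9.22 versus 9.45 and 9.17, 8.90 and 8.58 versus 8.90 and 8.79, and 9.29, 9.24 and 9.09 versus 8.87, 9.38 and 9.54. In each of these genes the low value of the last group is the same array, B16 day 18, Nrp1-deleted replicate 1.

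Mcm5 had 8.77 and 8.64 in early controls against 8.88 and 8.80, 8.36 and 8.03 versus 8.35 and 8.31, and 8.55, 8.53 and 8.36 versus 8.70, 8.93 and 9.03. Pcna had 12.49 and 12.37 versus 12.45 and 12.49, 12.17 and 11.92 versus 12.14 and 12.13, and 11.92, 11.81 and 11.76 versus 11.83, 11.90 and 12.12. Tyms had 9.47 and 9.36 versus 9.34 and 9.17, 9.05 and 8.76 versus 8.75 and 8.98, and 9.18, 9.24 and 9.14 versus 8.82, 9.24 and 9.31. Of the 3, Mcm5 was separated early and at day 18, with Nrp1-deleted arrays higher, and Tyms early, with Nrp1-deleted arrays lower.

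E2f1 had 6.82 and 6.64 in early controls against 6.63 and 6.59, 6.32 and 6.39 versus 6.04 and 6.22, and 6.5956, 6.65 and 6.38 versus 6.56, 6.56 and 6.40. Foxm1 had 4.98 and 4.21 versus 5.04 and 4.86, 3.75 and 4.01 versus 4.50 and 4.18, and 5.08, 5.48 and 5.03 versus 4.57, 5.0032 and 5.22. Ccne1 had 6.91 and 6.81 versus 6.86 and 6.63, 6.81 and 6.24 versus 6.38 and 6.59, and 6.71, 6.72 and 6.37 versus 6.55, 7.10 and 6.63. The Nrp1-deleted arrays of E2f1 were the lower ones at the first 2 times, and Ccne1 overlapped at each time.

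**Figure D2:**
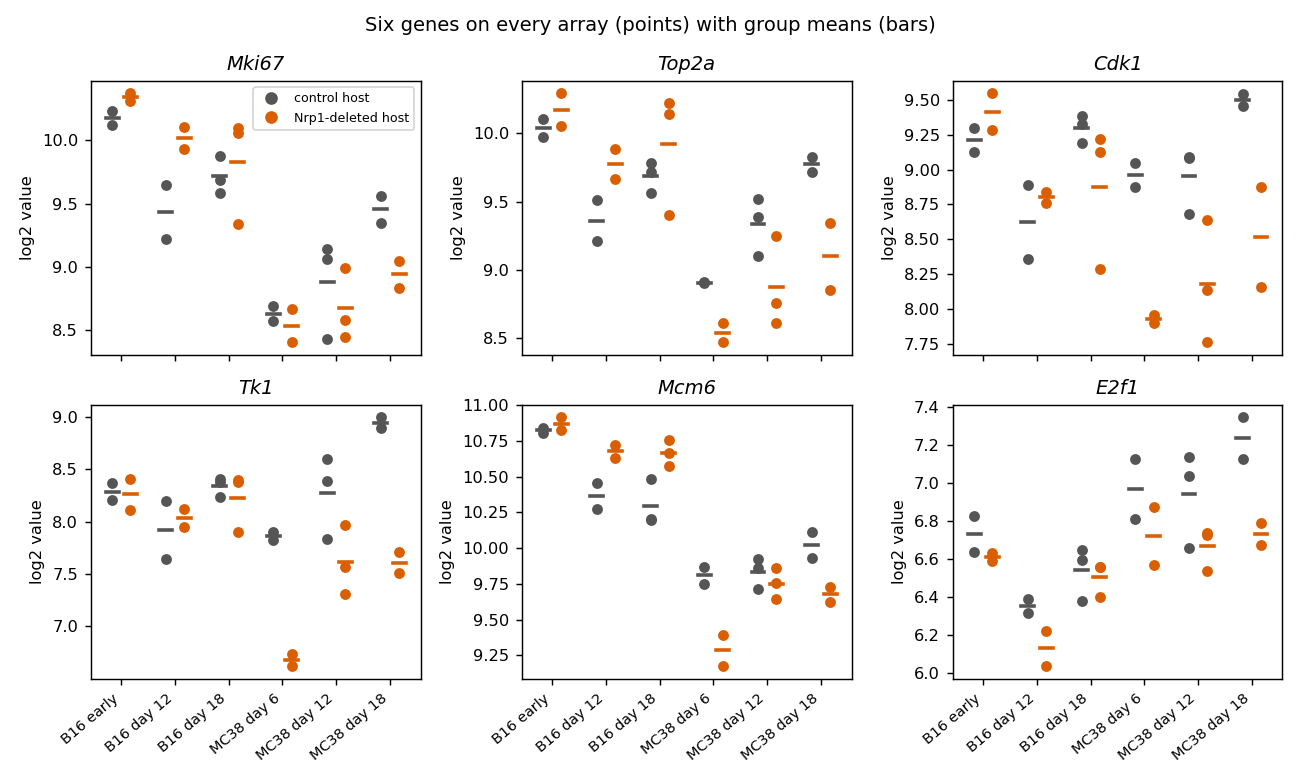
Log2 values of 6 genes on every array (points) with group means (bars), by tumour and time, for control (grey) and Nrp1-deleted hosts (orange). In MC38, Cdk1 separates by genotype at days 6, 12 and 18 and Tk1 at days 6 and 18. Mcm6 is higher in Nrp1-deleted hosts in B16 at days 12 and 18 and lower in MC38 at days 6 and 18. Mki67 differs little in MC38 at day 6.

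At the single B16 times, limma called 0 of the 45 genes at the early day, where 0 also had an unadjusted p under 0.05 and 0.445% of all genes were called. At day 12 Mcm6 rose by 0.31 ± 0.11 (adjusted p = 0.048), 1 gene against 7.8% of all genes, and the count was 0 without control replicate 2 or either Nrp1-deleted array. At day 18 Mcm4 rose by 0.41 ± 0.10 (adjusted p = 0.00322) and Mcm6 by 0.37 ± 0.09 (adjusted p = 0.00384), 2 genes against 7.54%. The medians over the 45 genes were 0.09, 0.14 and -0.02. All Nrp1-deleted arrays lay above all controls for 15, 18 and 3 of the 45 genes at the 3 times, against 21.2%, 31.6% and 13.6% of all genes.

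The B16 day 18 median hides a split among the 3 Nrp1-deleted arrays. Relative to the control mean, the array medians were -0.42, 0.15 and 0.23. Replicate 1 lay below the control mean for 37 of the 45 genes, replicates 2 and 3 for 8 and 9. It lay below all 3 controls for 30 of the 45 genes, among them 9 of 9 mitotic kinase and checkpoint genes, 4 of 4 mitotic entry genes, 4 of 6 spindle genes and 3 of 4 nucleotide supply genes, but 1 of 9 replication genes. Bub1b had 6.49 there versus 7.26 and 7.31 on its replicates, Tk1 had 7.90 versus 8.38 and 8.40, and its Mcm4 value, 9.86, lay above all 3 controls. Without this array the count of higher genes was 9 in B16, 6 at B16 day 18 and 42 in the difference between tumours, the B16 median was 0.14, and 0 genes fell. The B16 count was 1 without day 18 control replicate 2 or Nrp1-deleted replicate 3, day 12 control replicate 2 or Nrp1-deleted replicate 1, or early control replicate 2 or Nrp1-deleted replicate 1. The early and day 12 arrays had positive medians in all 4 Nrp1-deleted arrays (0.15, 0.03, 0.17 and 0.16).

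The genotype effect differed between the tumours for most of the genes. Subtracting the MC38 effect from the B16 effect gave a value that was positive for all 45 genes, with a median of 0.63 versus 0.06 over all genes. It was called higher for 37 genes (82.2%) and lower for 0, against 6.75% and 7.22% of all genes, and 44 had an unadjusted p under 0.05. The largest were Kif11 (1.19 ± 0.26, adjusted p = 0.00284), Ttk (1.14 ± 0.29, adjusted p = 0.00852) and Prc1 (1.14 ± 0.25, adjusted p = 0.0026), all of the mitotic spindle or its checkpoint. The smallest adjusted p was that of Mcm6 (0.56 ± 0.08, adjusted p = 5.6e-05), which rose in B16 and fell in MC38, as did Mcm4 (0.40 ± 0.09, adjusted p = 0.00349).

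By role, the difference between tumours was called for 9 of 9 replication genes, 9 of 9 mitotic kinase and checkpoint genes, 6 of 6 spindle genes, 3 of 3 anaphase genes, 3 of 4 nucleotide supply genes, 3 of 4 mitotic entry genes, 2 of 3 kinetochore genes and 0 of 5 genes of transcription and G1/S control. Mki67 (0.56 ± 0.17, adjusted p = 0.0321) and Cenpf (0.88 ± 0.25, adjusted p = 0.0176) were called here but in neither tumour alone. E2f1, Ccne1, Ccne2, Uhrf1, Rrm1 and Cdc25c were called in MC38 but not in the difference, so that their effects are not shown to differ between tumours. Leaving out 1 array at a time gave 28 to 42 calls, the lowest without MC38 day 18 control replicate 2.

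**Figure D3:**
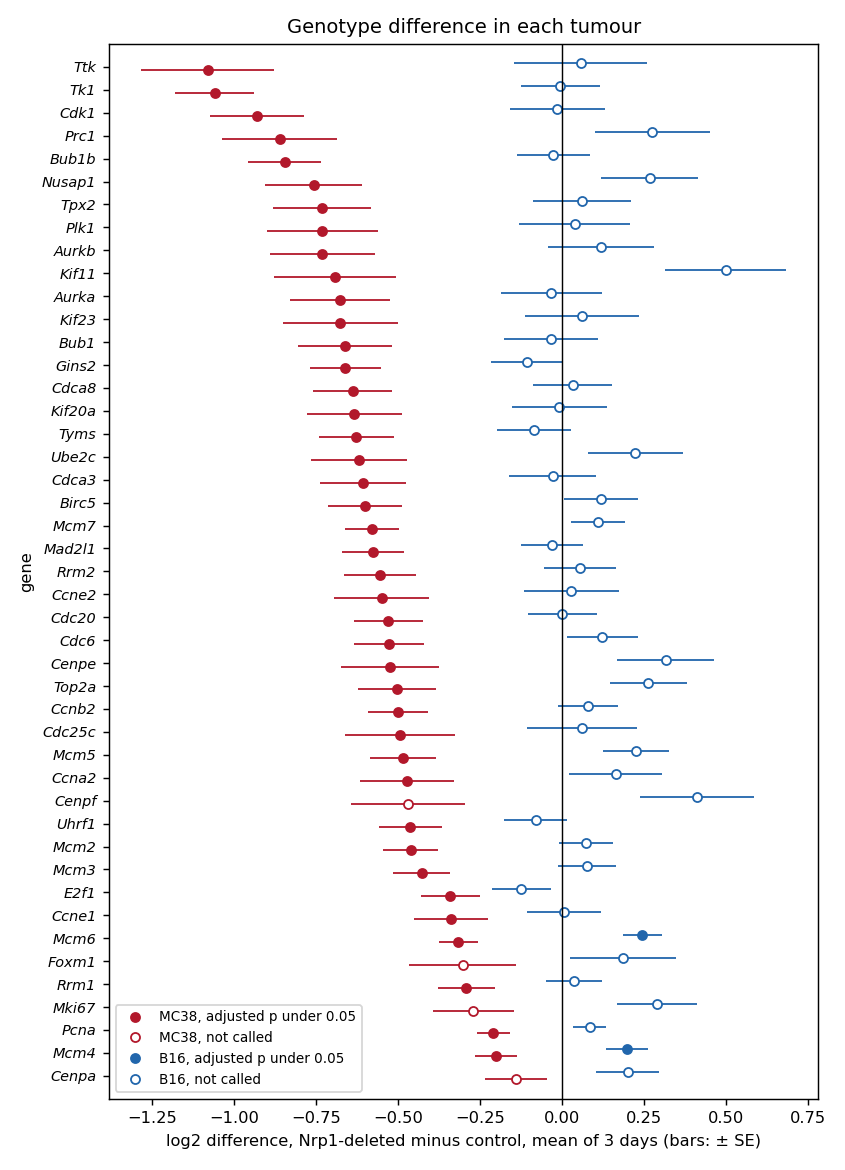
Log2 difference, Nrp1-deleted minus control, averaged over the 3 times of each tumour (points; bars are ± SE), for MC38 (red) and B16 (blue); filled points have an adjusted p under 0.05. The MC38 points lie left of 0 for 45 of 45 genes, and the B16 points scatter around 0, with Mcm6 and Mcm4 filled.

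Averaged over both tumours and all times, 25 genes fell (55.6%) and 0 rose, against 17.9% and 11% of all genes, with a median of -0.24 against -0.03. Tk1 had -0.53 ± 0.08 (adjusted p = 3.36e-05), Bub1b -0.44 ± 0.08 (adjusted p = 0.000133) and Gins2 -0.38 ± 0.08 (adjusted p = 0.000441). Gins2 had 8.0043 and 7.80 in early B16 controls against 7.83 and 7.67, and 7.63 and 7.74 in MC38 day 6 controls against 7.02 and 6.70. For most of these genes this average combines a fall in MC38 with no call in B16, and 37 of the 45 effects differ between the tumours, as given above.

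Days were compared within each tumour. In MC38 control hosts 12 of the 45 genes rose from day 6 to day 18, against 4.4% of all genes, all 45 differences were positive, and the median was 0.51. Tk1 rose by 1.08 ± 0.22 (adjusted p = 0.00255), Bub1b by 0.87 ± 0.20 (adjusted p = 0.00745) and Top2a by 0.87 ± 0.22 (adjusted p = 0.0118). Mad2l1, Tpx2, Bub1, Mki67, Kif20a, Cenpf, Birc5, Ccna2 and Kif23 were the other 9, with Mki67 at 0.82 ± 0.23 (adjusted p = 0.0218).

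None of the 9 replication genes was among these 12, and their median was 0.21, against 0.94 for the 6 spindle genes. In 39 of the 45 genes both control arrays of day 18 lay above both of day 6, against 28.6% of all genes. The count was 1 without day 6 control replicate 1 or either day 18 control and 4 without day 6 control replicate 2.

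In Nrp1-deleted hosts with MC38 tumours all 45 differences between day 18 and day 6 were positive too, with a median of 0.49, but only Tk1 was called, with a rise of 0.93 ± 0.22 (adjusted p = 0.0251), against 1.19% of all genes. At an unadjusted p under 0.05 there were 25 genes in each genotype. In 34 genes both later arrays lay above both earlier ones, against 21.9% of all genes. The count was 0 without either of 2 arrays (day 6 replicate 2 or day 18 replicate 2) and 4 without day 6 replicate 1.

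In B16, day 12 was set against the early day. In control hosts 10 of the 45 genes fell, against 6.92% of all genes, 43 differences were negative, and the median was -0.51. Cdc6 went from 7.9951 and 7.91 to 6.9956 and 6.84, by -1.03 ± 0.20 (adjusted p = 0.000572). Rrm1 went from 10.14 and 10.05 to 9.53 and 9.32, by -0.68 ± 0.16 (adjusted p = 0.00356), and Mcm6 differed by -0.46 ± 0.11 (adjusted p = 0.00369). The other 7 were Mcm7, Pcna, Mcm3, Mki67, Top2a, Birc5 and Cdca8, so that 5 of the 9 replication genes were among the 10. In 41 genes both day 12 controls lay below both early ones, against 28.9% of all genes. The count was 1 without day 12 control replicate 2, 4 without early control replicate 1 and 6 without early control replicate 2.

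In Nrp1-deleted hosts with B16 tumours 6 genes fell, against 7.09% of all genes, 42 differences were negative, and the median was -0.40. Cdc6 went from 8.26 and 7.93 to 6.89 and 6.65, by -1.32 ± 0.20 (adjusted p = 6.62e-05). Pcna differed by -0.34 ± 0.09 (adjusted p = 0.0132) and Mcm3, with 8.85 and 8.74 early and 8.25 and 8.32 at day 12, by -0.51 ± 0.16 (adjusted p = 0.0299). The other 3 were Rrm1, Uhrf1 and E2f1. In 40 genes the arrays did not overlap, against 25.7% of all genes.

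Each array left out in turn gave a count of 1 or 2 in those Nrp1-deleted hosts. The genotype effect at day 12 minus that at the early day was called by limma for 0 genes, and 0 had an unadjusted p under 0.05, against 6.29% of all genes called. The control and Nrp1-deleted time differences use separate arrays.

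**Figure D4:**
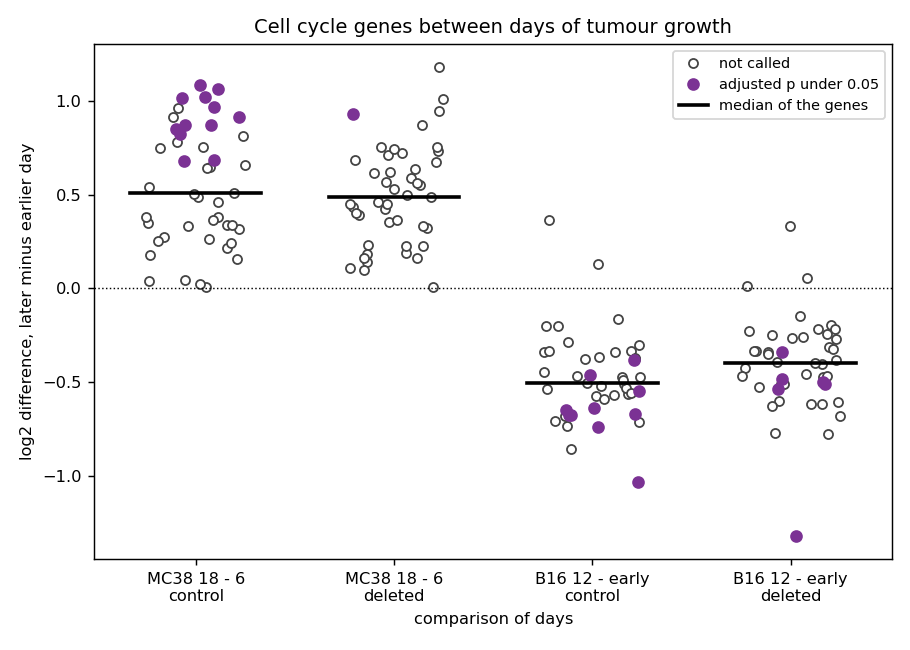
Log2 difference of each of the 45 genes between days of growth (points; filled where the adjusted p was under 0.05) in control and Nrp1-deleted hosts, with the median as a bar. The MC38 medians are 0.51 and 0.49 and the B16 medians -0.51 and -0.40.

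Of 102 measured further genes of the cycle, 71 fell (69.6%) and 3 rose (2.94%) in MC38 (median -0.46), where 12.3% of all genes fell and 6.97% rose. In B16, 5 fell (4.9%) and 14 rose (13.7%; median 0.10), where 12.3% of all genes fell and 10.3% rose. In MC38 the lowest adjusted p-values among those that fell were of Prim1, the DNA primase, with -0.56, Cenpk with -0.76, Gins1 with -0.87 and Pold1, the polymerase delta subunit, with -0.56. The 3 that rose were Rbl2, a pocket protein of quiescent cells, with 0.67, Cdk6 with 0.36 and Ccnd3 with 0.26. The last 2 encode a kinase and a cyclin of G1, and which cells they came from was not tested.

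In B16, Rpa2 rose by 0.62, Rbl1 by 0.46, Cdc25b by 0.76 and Smc4 by 0.35. Cdkn1a, the inhibitor p21, differed there by -1.21, Ccnd1 (cyclin D1) by -1.55, Cdkn2a by -0.82 and Cdk2 by -0.43, and all 4 fell. The difference between tumours was called higher for 65 of the 102 and lower for 3: Cdkn1a (-1.28), Ccnd1 (-1.33) and Cdkn2a (-1.22), the last with group means below 3.64 in 4 of the 6 MC38 groups. Ccnd1 rose by 1.62 and Cdkn2a by 1.60 from the early day to day 12 in B16 controls, where 5 of the 102 rose (4.9%) and 24 fell (23.5%), against 9.14% and 6.92% of all genes.

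Markers of cell types moved with genotype beside these genes. In MC38, 9 of 9 T cell markers rose (median 1.23), as did 9 of 10 cytotoxic lymphocyte markers (1.16), while 0 of 10 macrophage markers were called (-0.24). The mean log2 level of the T cell list ran from 5.85 to 7.93 on MC38 control arrays and from 7.62 to 9.04 on Nrp1-deleted arrays. Of 10 fibroblast markers 3 fell in MC38: Col3a1 by -2.18 ± 0.23, Postn by -2.13 ± 0.18 and Dcn by -2.07 ± 0.16, while Thy1, which T cells also express, rose by 0.84. Col1a2, Lum and Pdgfrb lay below 3.64 in all 12 groups, and Pdgfra and Fap in 11 of them. The mean of this list therefore moves mostly with its few other genes. The fibroblast list ran from 5.17 to 5.55 on MC38 controls and from 4.32 to 5.0012 on Nrp1-deleted arrays. Their part in the lower cell cycle values was not tested.

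Carcinoma cells of MC38 have no marker list of their own here; of 8 epithelial markers, 0 were called in MC38, and Krt8, Krt18, Krt19, Krt7, Cldn4 and Cldn7 lay below 3.64 in all 12 groups, while Cdh1, which some leukocytes express, ran from 7.41 to 9.59 in the MC38 groups. Averaged over the 3 B16 times, 6 of 9 T cell markers (median 0.74) and 9 of 10 cytotoxic markers (0.92) rose. Over the same times, 10 of 10 macrophage markers (-1.98) and 10 of 10 melanocytic markers (-1.67) fell. The melanocytic list, which marks the tumour cells, ran from 6.64 to 9.83 on B16 controls and from 4.96 to 7.40 on Nrp1-deleted arrays. On MC38 arrays it ran from 3.49 to 3.72. Its group mean was not lower at the early B16 day, with 6.77 in controls and 6.97 in Nrp1-deleted hosts. At B16 days 12 and 18 it was 6.96 against 5.35 and 9.43 against 6.19. From the early day to day 12 in B16 controls, 10 of 10 macrophage markers rose (1.89), and the mean of the list went from 7.71 to 9.68. In B16 Nrp1-deleted hosts that mean did not rise over the same days, with 6.82 and then 6.085. In MC38 controls 3 of 9 T cell markers fell from day 6 to day 18 (median -1.10), and the mean of the list went from 7.63 to 6.62. In MC38 Nrp1-deleted hosts it went from 8.68 to 8.47. The part of these cell types in the B16 and time results was not tested either.

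**Figure D5:**
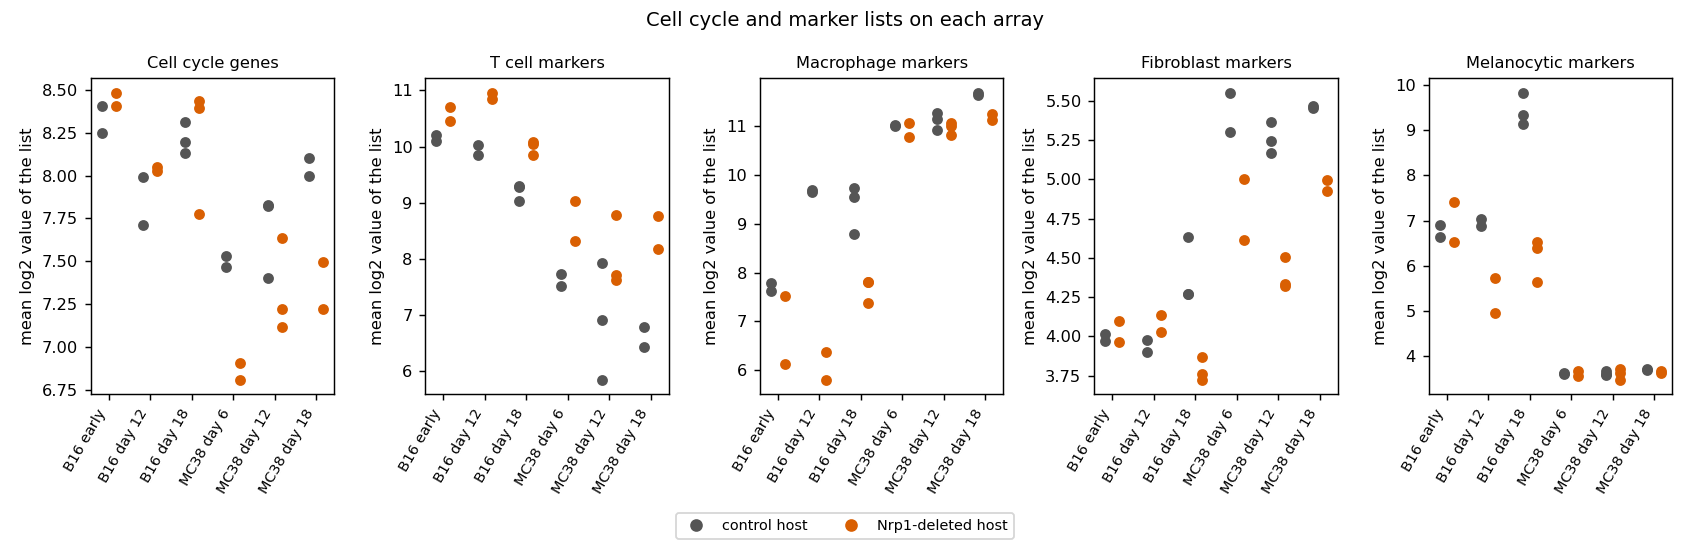
Mean log2 value of the 45 cell cycle genes and of the T cell, macrophage, fibroblast and melanocytic marker lists on each array (points), by tumour and time, for control (grey) and Nrp1-deleted hosts (orange). In MC38 the T cell markers are higher and the mean of the fibroblast list, which includes genes near background, is lower in Nrp1-deleted hosts. In B16 the macrophage markers are lower.

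Among themselves the 45 genes varied together. Over the 28 arrays, deviations from the group means had a median pairwise correlation of 0.68 and a mean of 0.62 among these genes, against a mean of 0.0096 over pairs of all genes. These arrays share processing and each pair of genes shares the same RNA, so this is a description. The genes least like the others were E2f1, with a median correlation of -0.01, Foxm1 (0.20) and Cenpa (0.35). These 3 had small MC38 differences, but Kif23, next in order (0.38), had -0.68. Pcna (0.67) and Mki67 (0.75) correlated well with the others and also had small ones, -0.21 and -0.27. The MC38 median was -0.63 for the 20 genes with both CHR and CCAAT matches and -0.50 for the 16 without both. It was -0.49 for the 7 genes with an E2F match and -0.60 for the 29 without.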

How the data were processed

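RNA of sorted CD45+ cells had been amplified over repeated cycles to biotin-labelled cRNA, per the labels' protocols. The deposited values are log2 intensities that, per the submitters' processing notes, the authors made with Partek 6.6 by RMA. The probe-to-gene table is GEO's platform annotation. Of 45141 probe sets, 104 were controls, 28898 named 1 gene, 551 named several and 15692 were unnamed here. For each of the 17097 genes, of the probe sets naming it alone, the one of highest 28-array mean was used; 7180 genes, 26 of the 45 among them, had several. The levels of different genes are not comparable.

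A limma model (limma 3.58.1, R 4.3.3) gave each of the 12 groups a mean, with an intensity trend in the empirical Bayes step, no filter and Benjamini-Hochberg adjustment over all genes at 0.05. Tests are 2-sided. The fit was tested on simulated data. The members and lists were chosen with earlier results of these data known. Values on every array are given for a fixed set of 11 measured members and, per comparison, up to 3 further members with the smallest adjusted p in each direction; of the 108 further cycle genes (102 measured), up to 4 in each direction are named. Values of further members beside a single array were chosen after they were seen. Marker lists covered T cells, cytotoxic lymphocytes, B cells, antibody-secreting cells, macrophages, neutrophils, erythroid cells, melanocytic cells, epithelial cells and fibroblasts. Alternatives covered probe sets, a filter, normalization, the variance model, array weights, a replicate block, the samples fitted and each array left out. Promoter windows came from RefSeq (GRCm38.p6), and scanner files were not used here. The number of arrays limits the precision.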

Additional observations from a re-analysis of the deposited data

Results flagged for a closer look

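The genotype effect differed between B16 and MC38 for 37 of the 45 genes, by a test of the difference itself (B16 minus MC38, limma, adjusted over all genes). Among the genes whose values were given on every array, the difference was 0.56 for Mki67 (adjusted p = 0.0321), 0.77 for Top2a (0.00273), 0.92 for Cdk1 (0.00326), 0.29 for Pcna (0.00653), 0.71 for Mcm5 (0.0014), 0.61 for Rrm2 (0.00927), 0.54 for Tyms (0.0252) and 0.72 for Birc5 (0.00329). It was 0.56 for Mcm6 (5.6e-05), 1.05 for Tk1 (0.000145) and 0.69 for Mcm7 (0.000262). Mki67 was called in neither tumour alone, and Mcm6 was called in both, in opposite directions. No group held enough arrays for a test of single outlying arrays.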

How the results depend on the processing

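Every array left out in turn gave 20 to 29 calls for the mean over 6 settings (25 with all arrays), 1 to 9 in B16 (2), 35 to 42 in MC38 (41), 28 to 42 for the difference between tumours (37), 0 to 0 in early B16 (0), 0 to 1 at B16 day 12 (1), 2 to 6 at B16 day 18 (2), 1 to 11 at MC38 day 6 (11), 1 to 17 at MC38 day 12 (6) and 1 to 7 at MC38 day 18 (15). For the days it gave 1 to 4 in MC38 controls (12), 0 to 4 in MC38 Nrp1-deleted hosts (1), 1 to 9 in B16 controls (10) and 1 to 2 in B16 Nrp1-deleted hosts (6), and 0 to 0 for the 2 differences of effects between days. No gene's called mean over the 6 settings, in B16 or in MC38 changed direction under the alternatives run. In MC38 the other settings gave 38 to 42 calls, and the median ran from -0.52 to -0.56; the mean over probe sets turned 1 uncalled difference positive.

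Counts that moved by over 1.5 times were these. Without the variance trend there were 1 in B16, 0 at B16 day 12, 7 at MC38 day 6, 9 at MC38 day 18 and 3 between B16 days in Nrp1-deleted hosts. With array weights there were 2 at B16 day 12, 5 at MC38 day 6, 31 at MC38 day 18, 20 and 0 between MC38 days in control and Nrp1-deleted hosts, and 25 and 11 between B16 days. Fitted with the compared groups only there were 4 in B16, 7 at B16 day 12, 2, 1 and 36 at MC38 days 6, 12 and 18, 29 and 0 between MC38 days and 30 and 23 between B16 days. Within the range of values, added after the data were seen, there were 7 at B16 day 12, 20, 0 and 25 at MC38 days 6, 12 and 18, 8 between MC38 days in Nrp1-deleted hosts and 30 and 23 between B16 days. Without the 6 B16 day 18 arrays there was 1 in B16. The mean over probe sets gave 6 between MC38 days in controls. Between days in Nrp1-deleted hosts, the filter on dim genes gave 6 in MC38 and 12 in B16, a robust trend 4 in MC38 and centring on the 75th percentile 12 in B16. The cause was not tested.

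Deviations of same-numbered arrays correlated at -0.28 to 0.20, and in no setting of 3 pairs was every correlation over 0.1, so the numbers were not taken as pairs. With a replicate block there were 20 calls over the 6 settings, 2 in B16, 39 in MC38, 27 in the difference, 0 at B16 day 12 and 2, 1 and 4 at MC38 days 6, 12 and 18. At B16 day 18 the 3 correlations were 0.095, 0.103 and 0.196, so that only the first missed this limit. There 6 of 6 arrays correlated best with their own number, and at MC38 day 12, 0 of 6. In early B16 the correlation was -0.11, and a block with crossed numbers gave 0 calls. The block could not be fitted for the comparisons of days. With 2 or 3 arrays a group, counts for single days rest on few arrays. In a group of 2, leaving out 1 array leaves 1, so precision falls whichever array it is.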

Other observations

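The remaining marker lists gave these counts by genotype. Of 7 B cell markers 0 were called in MC38 (median -0.03) and 0 in B16 (-0.05). Of 5 markers of antibody-secreting cells 2 rose in MC38 and 2 in B16. Of 8 neutrophil markers 1 fell in MC38 and 3 fell in B16, and of 4 erythroid markers 1 fell in MC38 and 0 were called in B16. Of all genes, 6.97% rose and 12.3% fell in MC38, and 10.3% rose and 12.3% fell in B16. These lists hold genes near background: Tnfrsf17, Camp, Elane and Alas2 lay below 3.64 in all 12 groups. Jchain, of the antibody-secreting list, lay at 2.81 to 3.56 in the MC38 groups.

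Single regulators of the cycle also differed between days. In MC38 controls Cdkn1a fell by 1.09 from day 6 to day 18. In B16 Nrp1-deleted hosts Cdkn1a fell by 1.69 from the early day to day 12, while Rbl1 rose by 1.02 and Myc by 0.83. Lin54, a DNA-binding subunit of the DREAM complex, fell by 1.65 in B16 controls and fell by 1.73 in Nrp1-deleted hosts over the same days.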
